A study of Rattus norvegicus with 16 samples.

Results

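In synovial tissue from rat knees, 227 of 26956 tested transcripts (0.842%) kept all 8 knees injected with monoiodoacetate (MIA) on one side of all 8 knees injected with saline. For 198 of them (0.735% of those tested) every MIA library was above every saline library, and for 29 (0.108%) every MIA library was below; these are called raised and lowered members. Members were chosen by these measured levels alone, as CPM (counts relative to the library total) scaled between libraries by TMM, a method that matches the bulk of transcripts across libraries. The split between MIA and saline knees is therefore the selection itself, and its values and calls are given below as a description only. The treatment labels (inhibitor or vehicle) entered the choice only through the filter for tested transcripts, which used the 4 groups of knee and treatment. The levels of all 16 libraries were used. Tests of inhibitor against vehicle were made across all tested transcripts; the members' share in them is conditional on the choice, and counts over members are descriptions.

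MIA blocks an enzyme of glycolysis and kills cartilage cells, and its injection into a knee is used to model osteoarthritis with joint pain. The synovium is the soft lining of the joint, made of fibroblast-like cells, macrophages and vessels over connective tissue and fat, and inflammation of it accompanies cartilage loss. The protein inhibited is, by the series' title, FABP5, which carries fatty acids and endocannabinoids within cells.

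The 16 libraries were total RNA of synovial tissue, 4 in each of 4 groups: contralateral vehicle, MIA vehicle, contralateral inhibitor and MIA inhibitor. MIA knees had received 2 mg of MIA in 50 µl of saline and contralateral knees of the same rats 50 µl of saline, and tissue was taken 4 weeks later. The contralateral knees are thus saline controls within injected rats, and no knee of an uninjected rat was among the groups. The labels state no strain, sex, age, compound, dose or schedule. Nor do they call the libraries of a group separate rats, so p-values reflect only the spread among these libraries, which may be technical.

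Library totals ran from 15614902 to 37063328 estimated counts. In a principal component analysis of log2(CPM + 1), component 1 (44% of the variance) gave the 4 contralateral vehicle libraries the 4 lowest scores, from -190.5 to -87.46, against -14 to 84.27 in the other 12. They also had the lowest TMM factors, 0.585 to 0.814 against 0.914 to 1.235. Replicate 1 of contralateral vehicle and MIA vehicle and replicate 4 of contralateral inhibitor and MIA inhibitor stood apart on component 2, at 71 to 111.6 with all others below 0. Counts of calls and directions in the inhibitor comparisons are therefore also given without these 4 libraries. The deposited identifiers are those of Ensembl transcripts and could not be joined to gene symbols (0 matched), so the labelled tissue was not checked against marker genes, functions are not stated, and 4 transcripts are given by identifier. In bulk tissue, fewer cells of a type and less RNA per cell cannot be told apart.

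The raised member with the widest gap between the knees was ENSRNOT00000100671.1, a transcript of 5834 bases. Its level was 0, 0, 0 and 0.173 CPM in contralateral vehicle knees and 56.7, 387, 179.9 and 220 CPM in MIA vehicle knees. In inhibitor rats it was 0, 1.16, 0.117 and 1.47 CPM in contralateral knees and 5.96, 10.1, 10.1 and 10.2 CPM in MIA knees. All 4 MIA inhibitor libraries thus lay above every contralateral library and below every MIA vehicle library. The lowest MIA library was 1.49 above the highest contralateral library on the log2(CPM + 1) scale. The ratio in vehicle rats was 5970, from 29880 counts over the MIA libraries and 3 over the contralateral ones, with a 95% counting interval of 2040 to 28900. In inhibitor rats the ratio was 16.4 (12.6 to 21.7), from 1109 counts against 59. These intervals cover counting error only.

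ENSRNOT00000007747.8, of 1322 bases, had the highest mean CPM of the raised members. It measured 419.2, 127.9, 138 and 137.3 CPM in contralateral vehicle knees and 3790, 1546, 1578 and 1601 CPM in MIA vehicle knees. In inhibitor rats it measured 243.6, 674.8, 479.3 and 597.8 CPM in contralateral knees and 980.8, 3091, 2763 and 3185 CPM in MIA knees. Its log2 change between the knees was 3.37 ± 0.55 (SE) in vehicle rats and 2.33 ± 0.53 in inhibitor rats. The MIA groups overlapped each other, and replicate 1 was the highest MIA vehicle library and the lowest MIA inhibitor library.

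Among lowered members, the widest gap belonged to ENSRNOT00000119836.1, of 1970 bases. Its levels were 6.09, 9.11, 7.28 and 12 CPM in contralateral vehicle knees and 3.05, 0.697, 0.784 and 1.76 CPM in MIA vehicle knees. In inhibitor rats they were 6.06, 6.09, 5.66 and 8.42 CPM in contralateral knees and 2.45, 1.49, 0.216 and 2.74 CPM in MIA knees. Within each kind of knee the treatments overlapped, and the change between knees was -2.45 ± 0.64 (SE) in vehicle rats and -1.92 ± 0.62 in inhibitor rats on the log2 scale.

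ENSRNOT00000093353.2, of 5566 bases, had the highest mean CPM of the lowered members. It measured 240.5, 278.9, 322.2 and 294.7 CPM in contralateral vehicle knees, and 160.1, 104.2, 124.2 and 124.7 CPM in MIA vehicle knees. The corresponding inhibitor values were 257.7, 197.8, 182 and 223.2 CPM and 167.9, 111.1, 152 and 160.6 CPM. Its lowest contralateral library was 1.08 times its highest MIA library, and both were from inhibitor rats. The change between knees was -1.15 ± 0.18 (SE) and -0.54 ± 0.18 on the log2 scale in vehicle and inhibitor rats.

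**Figure D1:**
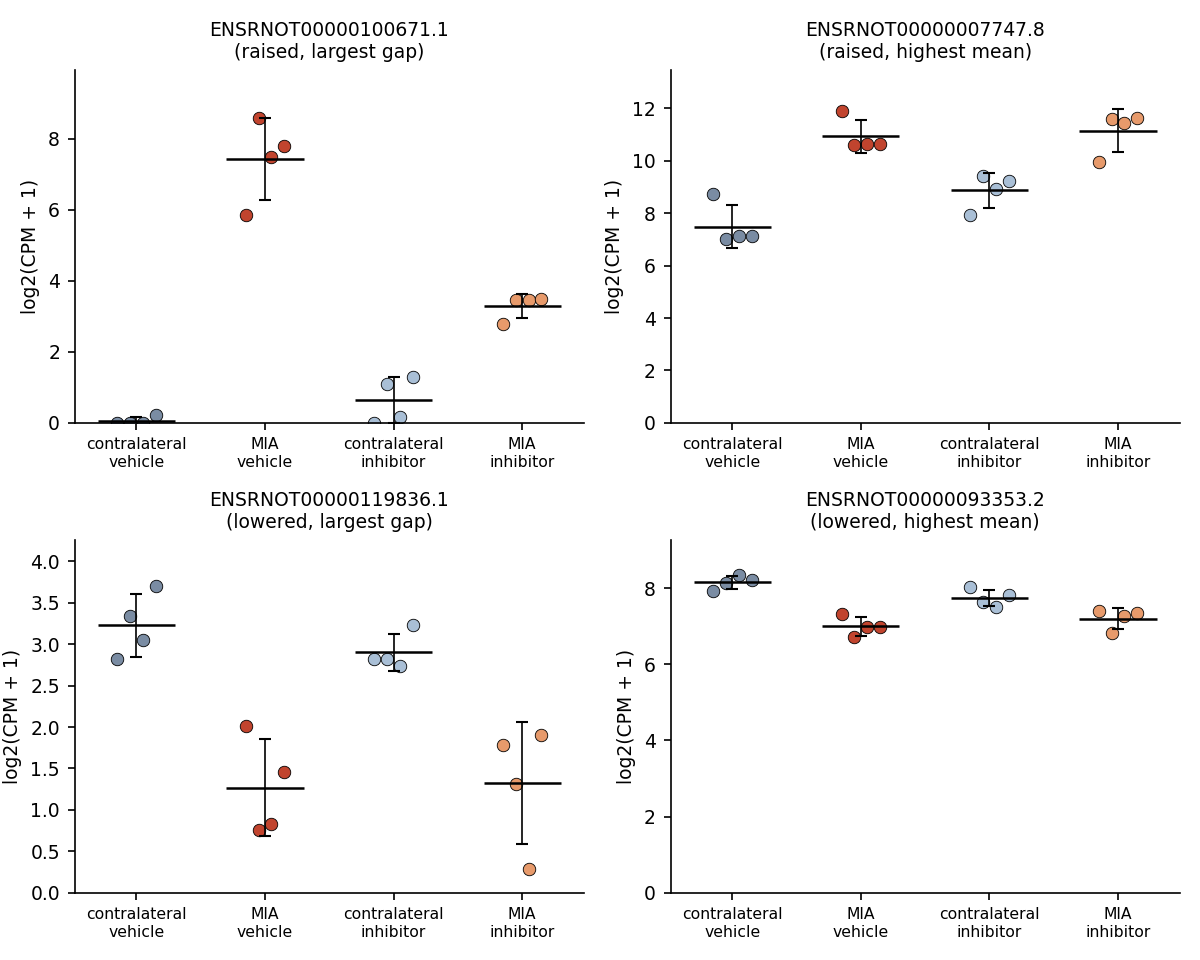
Level of the 4 transcripts named by identifier in each library, as log2(CPM + 1), in the 4 groups of 4 libraries; points are libraries and lines are the mean ± SD. In every panel the 8 MIA libraries lie on one side of the 8 contralateral libraries, and for ENSRNOT00000100671.1 the MIA inhibitor libraries (mean 9.08 CPM) also lie apart from the MIA vehicle libraries (mean 210.9 CPM).

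The 198 raised members were spread over the range of CPM, which is not corrected for transcript length. Their median level over all libraries was 10.3 CPM (0.155 to 1334), against 7.61 CPM for all tested transcripts. There were 21 below 1 CPM, 74 from 1 to 10 CPM, 84 from 10 to 100 CPM and 19 of at least 100 CPM. The last class held 9.6% of raised members and 5.7% of all tested transcripts. The 29 lowered members had a median of 8.67 CPM (0.277 to 193.9), with 2 of at least 100 CPM.

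Median transcript length was 2949.5 bases (144 to 10866) for raised members and 2223 bases (429 to 5566) for lowered members, against 2681 bases for all tested transcripts. The counts were whole in every library for 43 raised members (21.7%), 2 lowered members (6.9%) and 11.8% of all tested transcripts. Where counts were not whole, Salmon had divided reads between transcripts that share sequence, so a transcript's level depends on that division. This holds for each of the 4 named transcripts: counts were fractional in all 16 libraries for ENSRNOT00000007747.8 and ENSRNOT00000119836.1, in 10 for ENSRNOT00000100671.1 and in 3 for ENSRNOT00000093353.2.

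The gap between the knees was narrow for most members. The lowest MIA library was at a median of 1.14 times the highest contralateral library among raised members. It was at least 2 times for 11 of them, at least 1.5 times for 25 and under 1.1 times for 80. For lowered members the median ratio was 1.1, with 2 at 1.5 or more and 16 under 1.1. At the edge of the rule, the last raised transcript inside had 12.68 CPM in both its lowest MIA and its highest contralateral library, a ratio of 1.00042. The first outside had 32.68 and 32.69 CPM. On the lowered side the closest member had 7.505 CPM in its highest MIA library and 7.507 in its lowest contralateral library, and the first transcript outside had 19.73 and 19.71 CPM.

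Libraries of inhibitor rats usually set the edge. For 155 of 198 raised members (78.3%) the lowest MIA library was a MIA inhibitor library, and for 147 (74.2%) the highest contralateral library was a contralateral inhibitor library. MIA inhibitor replicate 1 was the lowest MIA library for 89 raised members and replicate 4 for 43. Contralateral inhibitor replicates 4 and 2 were the highest contralateral libraries for 57 and 52. Among the 51 raised members whose edge was a contralateral vehicle library, it was replicate 1 for 35. For lowered members the edge was a MIA inhibitor library in 22 of 29 (75.9%) and a contralateral inhibitor library in 25 (86.2%).

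**Figure D2:**
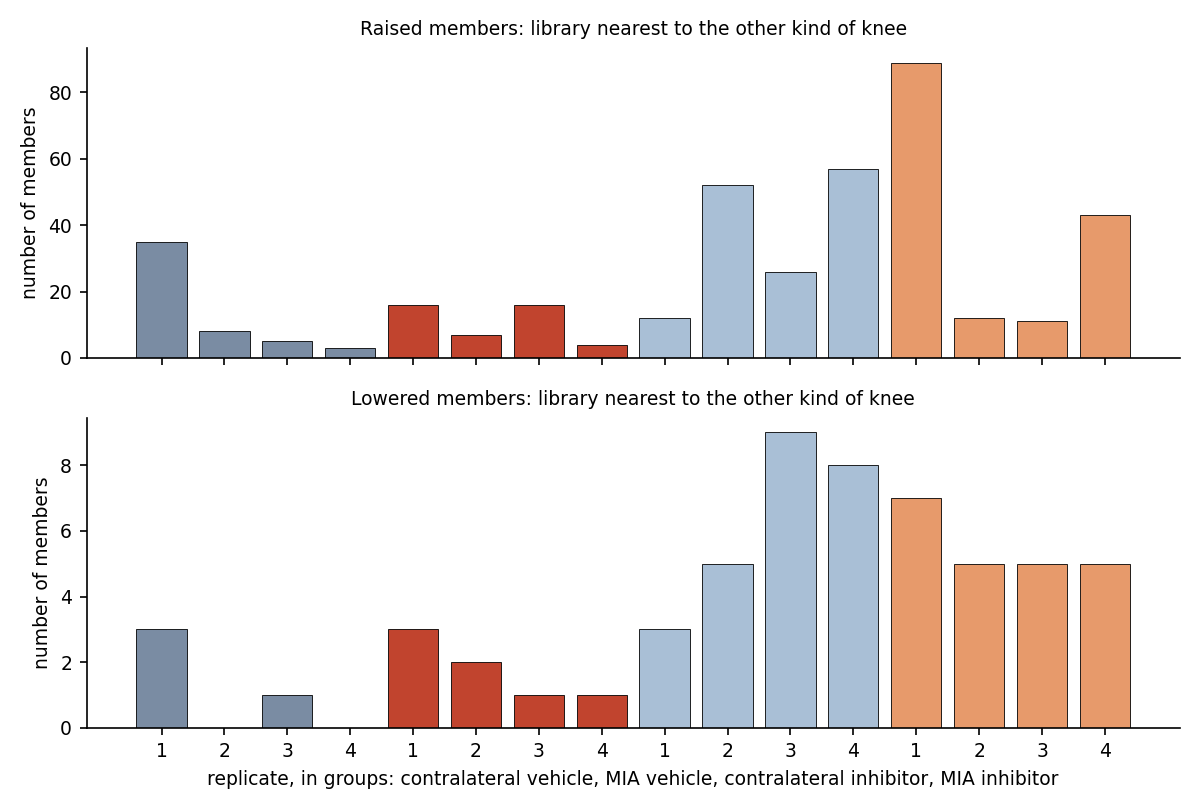
Number of members (vertical axis, linear, from 0) for which each of the 16 libraries (horizontal axis, replicates 1 to 4 of each group) is the one nearest to the other kind of knee, for raised members above and lowered members below. Each member counts once among MIA and once among contralateral libraries, and MIA inhibitor replicate 1 has the highest bar for raised members, 89.

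A further 4 raised members, with 0 counts throughout the 8 contralateral libraries, were detected only in MIA knees, at mean levels of 0.311 to 26.3 CPM and single libraries of 0.0754 to 74.8 CPM. A floor of 3 counts corresponds to 0.088 to 0.21 CPM in single contralateral libraries and is the upper limit that a count of 0 allows, for counting error only. Every lowered member had counts in at least 1 MIA library.

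The change between knees is a description of how members were chosen, and nothing is read from its calls. In vehicle rats raised members had a median log2 change of 2.13 (quartiles 1.41 and 3.12), and in inhibitor rats 1.2 (0.76 and 1.9). All tested transcripts had medians of 0.26 and 0.0049. In vehicle rats 183 raised members passed an adjusted p of 0.05 in edgeR's quasi-likelihood test, where 15.9% of all tested transcripts were called higher, and 27 lowered members passed, where 13.2% were called lower. In inhibitor rats 0 members passed, where 0.00371% of all tested transcripts were called in either direction; 145 raised and 18 lowered members had an unadjusted p under 0.05, against 5.38% of all tested (40.1% in vehicle rats). Averaged over both treatments, 190 raised and 29 lowered members passed, where 19.7% of all tested transcripts were called, 10.3% higher and 9.33% lower. Lowered members had median changes of -1.98 in vehicle rats and -0.75 in inhibitor rats. Medians were the same with members at 0 in a whole group placed at a floor of 3 counts over the group.

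Of the raised members, 174 were over 2-fold apart in vehicle rats, 117 in inhibitor rats and 116 in both; 107 and 44 were over 4-fold apart. Of the lowered members, 26 and 9 were over 2-fold apart, and 13 and 2 over 4-fold. The change was smaller in inhibitor rats for 182 of 198 raised and 29 of 29 lowered members. This was not particular to the members. Over all tested transcripts the quartiles of the change were -0.55 and 1.02 in vehicle rats and -0.25 and 0.27 in inhibitor rats. The counts of this paragraph were not made over all tested transcripts. In every class of mean CPM the median change of raised members was smaller in inhibitor rats: 3.48 and 2.18 below 1 CPM, 2.25 and 1.43 from 1 to 10 CPM, 1.84 and 0.88 from 10 to 100 CPM, and 1.89 and 1.06 from 100 CPM. All 19 raised members of at least 100 CPM changed less in inhibitor rats.

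**Figure D3:**
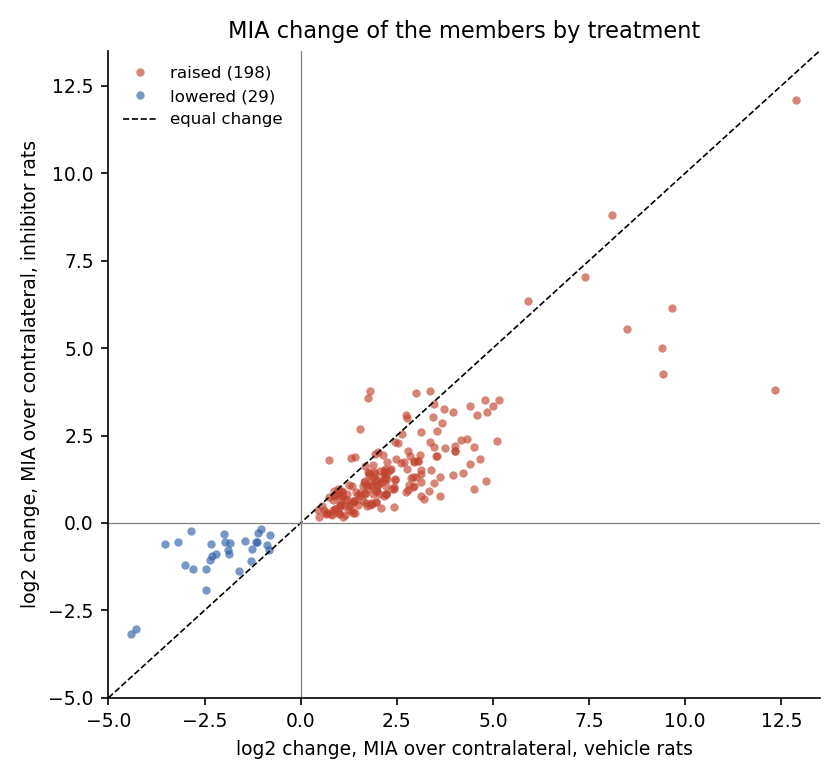
Fitted log2 change of each member between MIA and contralateral knees in vehicle rats (horizontal) and inhibitor rats (vertical), with 198 raised and 29 lowered members and a dashed line of equal change. Most points lie nearer to 0 in inhibitor rats, 182 raised and 29 lowered; the points farthest from 0 are members with no or few counts in contralateral knees, whose fitted change depends on the prior count.

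In MIA knees, most raised members had lower levels with the inhibitor than with vehicle, but none passed the test. The rule used the levels of both treatments, and the interaction given below is this comparison minus the one in contralateral knees. The directions of members are therefore a description, and nothing is read from them. The inhibitor value was the lower in 151 of 198 (76.3%), against 50% of all tested transcripts, with a median log2 change of -0.23 (quartiles -0.68 and -0.01) against -0.0002. Lowered members had higher levels with the inhibitor in 25 of 29, with a median of 0.36. By edgeR, 0 members had an adjusted p under 0.05, as did 0% of all tested transcripts, and the smallest among the members was 0.0993. At an unadjusted p under 0.05 there were 33 raised (16.7%) and 7 lowered members (24.1%), against 8.66% of all tested. DESeq2 called 17 members and limma-voom 36, where they called 2.97% and 7.55% of all transcripts with an adjusted p. Without the 4 libraries that stood apart, edgeR called 9, where 1.34% of all tested were called, with 140 raised members lower and 25 lowered members higher. Without MIA vehicle replicate 1 alone it called 10, and 0.647% of all tested.

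The 4 inhibitor libraries lay below the 4 vehicle libraries of MIA knees, with no overlap, for 23 raised members (11.6%), against 4% of all tested transcripts, and above them for 1. For lowered members the inhibitor libraries lay above for 5 (17.2%), against 3.48% of all tested, and below for 0. The log2 change was below -1 for 23 raised members (11.6%), against 8.86% of all tested, and above 1 for 0. For the named transcripts, ENSRNOT00000100671.1 differed by -4.54 ± 0.91 (SE) on the log2 scale, or 22.9 times higher with vehicle by counts (21.6 to 24.4), with an edgeR adjusted p of 0.152. The adjusted p was 0.0346 without the 4 libraries that stood apart and also 0.0346 without MIA vehicle replicate 1 alone, 0.000221 by DESeq2 and 4.65e-05 by limma-voom. The others differed less: 0.23 ± 0.5 for ENSRNOT00000007747.8 (edgeR adjusted p = 1), 0.13 ± 0.61 for ENSRNOT00000119836.1 (adjusted p = 1) and 0.21 ± 0.18 for ENSRNOT00000093353.2 (adjusted p = 0.989).

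A group of 9 raised members had a log2 change below -2 with the inhibitor in MIA knees. They were singled out after their values were seen, and they made up 4.55% of raised members, where 3.31% of all tested transcripts were below -2. For 7 of the 9 the MIA inhibitor libraries lay below all MIA vehicle libraries, and the edgeR adjusted p of the 9 ran from 0.0993 to 0.35. The pick was made on the difference between these same libraries, so the separation describes the pick. A like count was not made for all tested transcripts below -2. The group held the transcripts with the 3 widest gaps among raised members. The transcript with the second-widest gap measured 1089 ± 706 CPM (SD, n = 4) in MIA vehicle and 44.6 ± 18.2 CPM in MIA inhibitor knees, and 3.05 and 1.01 CPM in the contralateral groups. The next by gap measured 59.7 ± 29.2 and 3.81 ± 1.52 CPM in MIA knees.

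The largest difference of the 9, a log2 change of -6.11 ± 1.07 (SE), was in a transcript of 2602 bases at 400.1 ± 313 CPM (SD, n = 4) with vehicle and 5.78 ± 5.52 CPM with inhibitor. Its groups barely separated, since the lowest vehicle library was at 14.3 CPM and the highest inhibitor library at 13.8 CPM. The member of the 9 with the highest mean CPM measured 1980 ± 787 and 466.9 ± 96.3 CPM, with libraries of at least 1154 CPM with vehicle and at most 607.4 CPM with inhibitor. Over the 16 libraries the deviations of the 9 from their group means had a mean pairwise r of 0.526, a description in which the points share library and depth. For that with the second-widest gap, the MIA vehicle libraries spanned 282.1 to 1964 CPM, with replicate 1 the lowest, as it was for ENSRNOT00000100671.1.

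In contralateral knees, which received saline only, most raised members were higher and most lowered members lower in inhibitor rats, and 44 of the 227 passed the test. As in MIA knees, these directions are of transcripts chosen on the same levels, and nothing is read from them. Raised members were higher with the inhibitor in 157 and lower in 37 of 198 (79.3% higher, against 60.5% of all tested), with a median log2 change of 0.52 against 0.28. Lowered members were lower in 26 of 29 (89.7%, against 39.3%), with a median of -0.5. By edgeR 35 raised members (17.7%) passed an adjusted p of 0.05, 34 of them higher, where 23.9% of all tested transcripts were called, 12.1% higher and 11.8% lower; 37.5% had an unadjusted p under 0.05, as did 64 raised and 14 lowered members. Among lowered members 9 passed (31%), all lower. Counted in either direction, raised members were called less often than all tested transcripts. Counted in the members' own direction they were called more often. For raised members this was 34 of 198 called higher, against 12.1% of all tested, and for lowered members 31% called lower, against 11.8%. These shares are of chosen transcripts and are a description. The 44 called were 23 without contralateral vehicle replicate 2, where 15.2% of all tested transcripts were called, and also 23 without replicate 4 (14.2% of all). They were 27 without contralateral inhibitor replicate 2 (16.5% of all), 85 without contralateral vehicle replicate 1 (32.1%) and 66 without the 4 libraries that stood apart (39.6%). Without these 4, raised members were higher in 151 and lowered members lower in 27.

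The 1 raised member called lower measured 20.5 ± 4.08 CPM (SD, n = 4) in contralateral vehicle and 5.32 ± 3.73 CPM in contralateral inhibitor knees (log2 change -1.96 ± 0.44 SE, edgeR adjusted p = 0.00612), and 59.9 ± 21.8 and 33.7 ± 7.62 CPM in MIA knees. With no overlap, contralateral inhibitor libraries lay above contralateral vehicle libraries for 34 raised members (17.2%), against 11.3% of all tested, and below for 1. They lay below for 10 lowered members and above for 1, where 12.4% of all tested were below.

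ENSRNOT00000100671.1 was 15.8 times higher with the inhibitor in contralateral knees by counts (5.16 to 79), from 59 counts against 3. Its edgeR adjusted p of 0.0491 was lost under most alternatives, with 0.19 without the 4 libraries that stood apart and 0.396 by limma-voom. The call was kept by DESeq2 (adjusted p 0.00733). By edgeR it was kept with the replicate number as a block (0.0396) and without contralateral inhibitor replicate 1 (0.0203) or 3 (0.0377). ENSRNOT00000007747.8 measured 205.6 ± 142 CPM (SD, n = 4) with vehicle and 498.9 ± 188 CPM with inhibitor, a log2 change of 1.28 ± 0.51 (SE) with an edgeR adjusted p of 0.0836. Adjusted p was 0.0152 without the 4 libraries, 0.00884 without contralateral vehicle replicate 1 alone, 0.0452 by DESeq2 and 0.000983 by limma-voom. In every other setting run the edgeR adjusted p was above 0.05, up to 0.234 without contralateral vehicle replicate 2 or 4. ENSRNOT00000093353.2 measured 284.1 ± 34.1 and 215.2 ± 33.1 CPM, a change of -0.4 ± 0.18 with an edgeR adjusted p of 0.122. Adjusted p was 0.0126 without the 4 libraries, 0.0341 without MIA vehicle replicate 1 alone, 0.0448 with the size factors of DESeq2, 0.00973 by DESeq2 and 0.0236 by limma-voom. The remaining settings gave an edgeR adjusted p above 0.05, up to 0.275 without contralateral inhibitor replicate 3. For ENSRNOT00000119836.1 the change was -0.39 ± 0.6 with an adjusted p of 0.683.

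**Figure D4:**
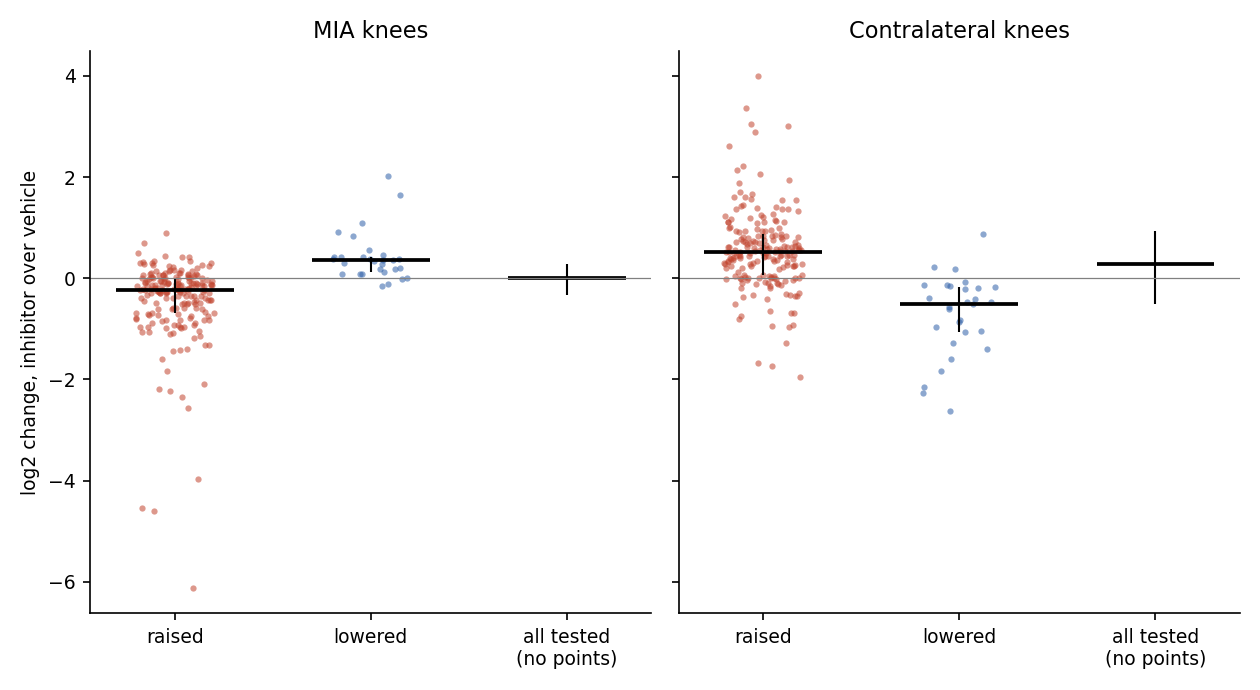
Fitted log2 change between inhibitor and vehicle rats in MIA knees (left) and contralateral knees (right), 1 point per member, with horizontal lines at the median and vertical lines between the quartiles for 198 raised members, 29 lowered members and all 26956 tested transcripts (drawn without points). Raised members have medians of -0.23 in MIA and 0.52 in contralateral knees, and lowered members 0.36 and -0.5.

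The scaling bears on the contralateral comparison. With the size factors of DESeq2 in place of TMM, the median of all tested transcripts there was 0.12 and not 0.28, and the medians of raised and lowered members were 0.38 and -0.68. Raised members were then higher in 145 of 198 and lowered members lower in 26 of 29. The contralateral vehicle libraries with low TMM factors were the vehicle side of this comparison, and the part of that in the result was not tested.

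The interaction is the change between knees in inhibitor rats minus that in vehicle rats. Both changes took part in the choice of members, and over all tested transcripts the change in vehicle rats was called far more often than in inhibitor rats (29.2% and 0.00371%), so the interaction of members is a description and nothing is read from its signs or calls. It was negative for 182 of 198 raised members (91.9%, against 59% of all tested), with a median of -0.81 (median SE 0.57) against -0.25. It was positive for 29 of 29 lowered members, against 41% of all tested, with a median of 1.15. By edgeR 25 raised members passed, all negative, where 9.9% of all tested transcripts were called and 4% were called negative, and 8 lowered members passed, all positive, where 5.89% were called positive. At an unadjusted p under 0.05 there were 62 raised and 18 lowered members, against 25.6% of all tested. Without the 4 libraries that stood apart it was negative for 167 raised and positive for 29 lowered members. The 33 called were 62 without these 4, 76 without contralateral vehicle replicate 1 and 14 without contralateral inhibitor replicate 2. In the same settings 25.1%, 19.6% and 5.21% of all tested transcripts were called.

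Of the named transcripts, ENSRNOT00000100671.1 had an edgeR adjusted p of 0.00809 for the interaction; its ratio between knees was 5970 by counts in vehicle rats and 16.4 in inhibitor rats. The other 3 were not called. Their interactions on the log2 scale were -1.04 ± 0.71 (SE) for ENSRNOT00000007747.8, 0.53 ± 0.86 for ENSRNOT00000119836.1 and 0.61 ± 0.26 for ENSRNOT00000093353.2, with edgeR adjusted p of 0.396, 0.771 and 0.154. With the replicate block that pairs the knees by number, the interaction of ENSRNOT00000007747.8 was -1.17 with an edgeR adjusted p of 0.0325. No other setting run gave it an adjusted p under 0.05. For ENSRNOT00000093353.2 the adjusted p was 0.0198 without the 4 libraries that stood apart, 0.0458 without MIA vehicle replicate 1 alone, 0.0276 by DESeq2 and 0.0251 by limma-voom. The remaining settings gave an edgeR adjusted p above 0.05, up to 0.271 without MIA vehicle replicate 2.

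The 4 group means of a raised member fell most often in 1 order. From high to low it was MIA vehicle, MIA inhibitor, contralateral inhibitor and contralateral vehicle, in 119 of 198 raised members (60.1%, against 13.7% of all tested). The rule fixes both MIA means above both contralateral means, so the comparison with all tested transcripts describes the rule as well as the treatment. The reverse order held for 22 of 29 lowered members (75.9%, against 8.04%). Only 2 raised members and 1 lowered member kept this order with no overlap between neighbouring groups, and by the rule no other transcript could. In the other members the treatments overlapped, or stood in another order, within at least 1 kind of knee. Between the knees no overlap was possible by the rule.

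Summed over the 198 raised members, the level was 3169 ± 1080 CPM (SD, n = 4) in contralateral vehicle, 15270 ± 2280 in MIA vehicle, 4804 ± 679 in contralateral inhibitor and 10530 ± 1830 in MIA inhibitor knees. All 4 MIA inhibitor libraries, at 7827 to 11884 CPM, lay below the 4 MIA vehicle libraries, at 13789 to 18632 CPM. The lowest MIA inhibitor library was replicate 1, which also set the edge for 89 raised members. In contralateral knees the treatments overlapped, since contralateral vehicle replicate 1 had 4766 CPM and contralateral inhibitor replicate 1 had 3826 CPM. Both statements depend on the TMM factors. In TPM the MIA sums overlapped, at 12445 to 18404 with vehicle and 7262 to 13075 with inhibitor, and the contralateral sums did not, at 753 to 2358 with vehicle and 2824 to 4594 with inhibitor. The unscaled share of counts likewise overlapped in MIA knees (1.34% to 2.17% and 0.961% to 1.43%) and not in contralateral knees (0.139% to 0.382% and 0.451% to 0.618%). The sums are of chosen transcripts, and the treatments were not tested on them.

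ENSRNOT00000007747.8 alone made up 4.69% to 8.8% of the raised sum in contralateral vehicle and 8.3% to 27.2% in MIA vehicle libraries. In inhibitor rats it made up 6.37% to 12.9% in contralateral and 12.5% to 28.6% in MIA libraries. Without it, the sums of MIA knees were 13140 ± 2910 CPM with vehicle and 8024 ± 934 CPM with inhibitor, and in TMM-scaled CPM they did not overlap (10149 to 17086 against 6846 to 9121). Without the 5 raised members of highest mean CPM they were 8956 ± 1750 and 5729 ± 749 CPM, again with no overlap (7173 to 11360 against 4767 to 6542).

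Summed over the 29 lowered members, the level was 1154 ± 285 CPM (SD, n = 4) in contralateral vehicle, 343.5 ± 65.1 in MIA vehicle, 677 ± 60.1 in contralateral inhibitor and 441.5 ± 29 in MIA inhibitor knees. In contralateral knees the inhibitor libraries, at 634 to 762 CPM, lay below the vehicle libraries, at 783 to 1449 CPM. This too depends on the TMM factors: in TPM the sums overlapped, at 362 to 563 with vehicle and 369 to 550 with inhibitor, as did the unscaled shares of counts (0.0628% to 0.0894% and 0.0619% to 0.0899%). In MIA knees the treatments overlapped, at 278 to 430 CPM with vehicle and 410 to 476 CPM with inhibitor. The ratio of the mean sums between the knees was 4.82 in vehicle and 2.19 in inhibitor rats for raised members, and 0.298 and 0.652 for lowered members. In TPM, which divides by length and by no TMM factor, these ratios were 10.3, 2.81, 0.515 and 0.668.

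**Figure D5:**
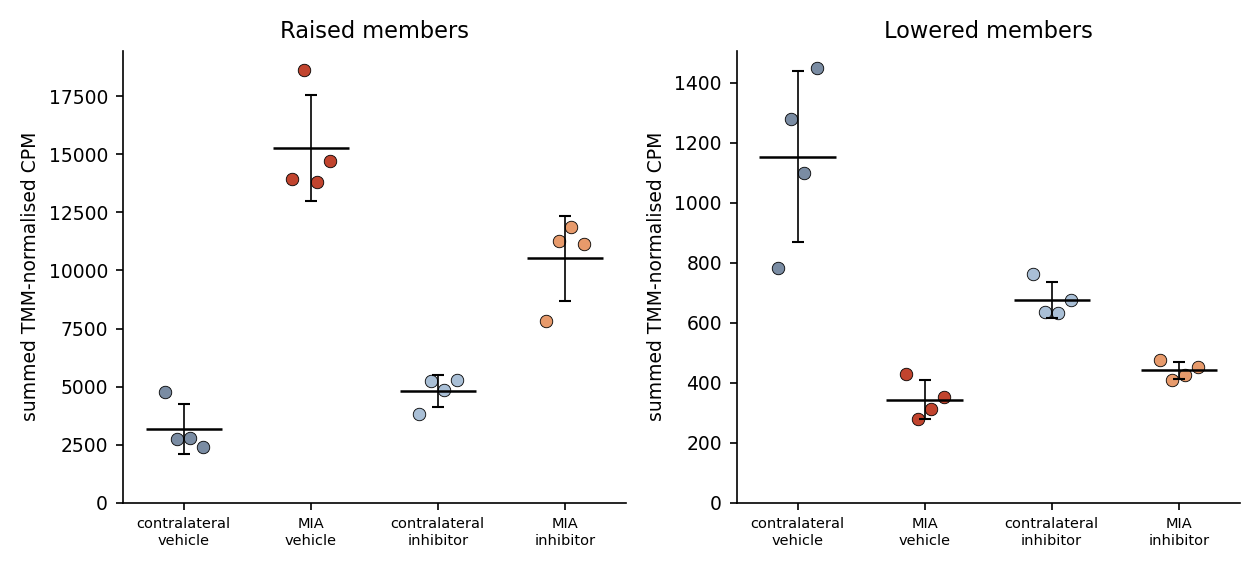
Summed TMM-normalised CPM of the 198 raised members (left) and the 29 lowered members (right) in each library; points are libraries and lines are the mean ± SD of 4. For raised members MIA inhibitor libraries (7827 to 11884) lie between the contralateral libraries and the MIA vehicle libraries (13789 to 18632), and for lowered members contralateral inhibitor libraries (634 to 762) lie below contralateral vehicle libraries (783 to 1449); in TPM or unscaled count shares neither of the separations between the treatments holds.

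Within groups, members deviated together to a small degree. On log2(CPM + 1), the mean pairwise r of deviations from the group means over 16 libraries was 0.219 among raised members, 0.301 among lowered members, -0.228 between the 2 sets and 0.0034 among all tested transcripts. The points share library and depth, and these values are a description. The widest median deviation of raised members was in contralateral vehicle replicate 1, at 0.33, and that library had the lowest median of lowered members in its group, at -0.33. It is 1 of the 4 libraries that stood apart on component 2, and their part in these correlations was not tested.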

How the data were processed

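Total RNA of rat synovial tissue was made into libraries with a directional kit and sequenced on an Illumina NextSeq, per the labels' protocols. Each library had 1 deposited table of transcripts. Its estimated counts are the authors' expected counts from Salmon, per the file headers; they carry no scaling for depth, and 26.7% to 34.8% of those above 0 were whole (tolerance 1e-06). Deposited TPM values divide by effective length and sum to a fixed total, per the file headers. Tools in the submitters' processing notes are Salmon 1.4.0, fastp 0.20.1 and DESeq2 1.30.0, with build mRatBN7.2; Salmon's options and the transcript release were not given in the sources used.

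Counts were rounded, 26956 of 46726 listed transcripts passed filterByExpr with 4 groups (99.7% to 99.9% of counts), and TMM factors gave CPM. All 227 members passed by the rule itself. The members and the lists were chosen with earlier results of these data known. Tests were edgeR's two-sided quasi-likelihood test over all 16 libraries (edgeR 4.0.16, limma 3.58.1, R 4.3.3) with Benjamini-Hochberg adjustment over 26956 transcripts at 0.05. The SE of a log2 change is its size over the square root of F. Counting intervals are exact at 95%. Library scores and deviations use log2(CPM + 1). Alternatives were DESeq2 1.42.0, limma-voom, other scaling and filters, TPM, a replicate block, leaving out each library, and 3 settings chosen after seeing the data: without the 4 libraries that stood apart, and each contralateral group alone as controls.

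The transcripts named by identifier are the raised and the lowered member with the widest gap and with the highest mean CPM. The planned gene lists and cell type markers need symbols and are not analysed here; the gene table given had 0 Ensembl identifiers. No promoter or protein sequence could be matched.

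Sample numbers are shared between groups. The deviations of same-numbered MIA and contralateral libraries correlated at 0.423, 0.227, 0.249 and 0.617 in inhibitor rats, all over 0.1, and at 0.217, 0.107, 0.118 and 0.0117 in vehicle rats. The labels do not say that a number marks a rat, and this check cannot decide it for either treatment. Libraries of different treatments also correlated, at 0.611 for MIA vehicle replicate 1 with MIA inhibitor replicate 4. MIA inhibitor replicate 2 correlated at 0.249 with contralateral inhibitor replicate 1 and at 0.227 with its own number. The other MIA inhibitor libraries correlated most with their own number among contralateral inhibitor libraries. The pair at 0.617 are both among the 4 libraries that stood apart. Blocked fits were run by number in both treatments, as alternatives.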

Additional observations from a re-analysis of the deposited data

Results flagged for a closer look

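Levels of the 4 named transcripts, and 4 summary levels of the raised and lowered members, were screened in each group of 4 libraries for a highest or lowest library far from its neighbour, by Dixon's ratio at its 95% critical value. Of 32 groups 5 passed. The critical value lets about 1 in 20 pass for independent values, but these groups share libraries, so the count was not compared with chance. ENSRNOT00000007747.8 was high in replicate 1 of both vehicle groups, at 419.2 CPM in the contralateral knee (its other libraries 127.9 to 138) and 3790 CPM in the MIA knee (1546 to 1601); both are among the 4 libraries that stood apart. ENSRNOT00000100671.1 was low in MIA inhibitor replicate 1, at 5.96 CPM against 10.1 to 10.2 in the others. In contralateral vehicle knees replicate 4 was its only library above 0, at 0.173 CPM, which by itself fixes Dixon's ratio at 1. ENSRNOT00000119836.1 was high in contralateral inhibitor replicate 4, at 8.42 CPM against 5.66 to 6.09 in the others.

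In edgeR's interaction test 25 raised members and 8 lowered members were called, each with a smaller change between knees in inhibitor rats, among them ENSRNOT00000100671.1 with an adjusted p of 0.00809. The members were chosen on the changes that make up the interaction, so these counts are descriptions of chosen transcripts. The count ratios of that transcript, 5970 in vehicle and 16.4 in inhibitor rats, rest on 3 counts in contralateral vehicle and 59 in contralateral inhibitor knees.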

How the results depend on the processing

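The membership count depends on the settings. Without TMM factors there were 337 members, 324 raised and 13 lowered, of which 143 were among the 227; in TPM there were 417, 412 raised and 5 lowered, of which 135 were. DESeq2 size factors gave 213 (204 shared), no filter 243 (224 shared) and unrounded counts 228 (224 shared). Leaving out 1 library can only add to a separation at the same scaling, and gave 232 to 466 members, 200 to 399 raised and 29 to 78 lowered; it was over 1.5 times the main count without contralateral inhibitor replicate 2 (413) or 4 (432) or MIA inhibitor replicate 1 (466). Of settings chosen after seeing the data, leaving out the 4 libraries that stood apart gave 1239 (1015 raised, 224 lowered), contralateral inhibitor libraries alone as controls 626 (409 and 217), and contralateral vehicle libraries alone 5838 (2716 and 3122). The ratios of summed levels in TPM, 10.3 and 2.81 for raised members in vehicle and inhibitor rats and 0.515 for lowered members in vehicle rats, moved from 4.82, 2.19 and 0.298 in CPM.

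For the inhibitor comparisons of the 227 members, DESeq2 called 17 in MIA knees and 55 in the interaction. It called 2.97% and 18.7% of all transcripts with an adjusted p. Limma-voom called 36 in MIA knees, 82 in contralateral knees and 89 in the interaction, where it called 7.55%, 42.4% and 31.3% of all tested. A fit of only the 8 contralateral libraries called 16 of the 198 members it kept, and 15.1% of all transcripts it kept. Without the 4 libraries that stood apart 9 were called in MIA knees and 62 in the interaction, where 1.34% and 25.1% of all tested were called. Leaving out 1 library gave 0 to 10 in MIA knees, 23 to 85 in contralateral knees and 14 to 76 in the interaction. The shares of all tested transcripts called then ran from 0% to 0.647%, 14.2% to 32.1% and 5.21% to 19.6%. The interaction count fell to 17 without contralateral vehicle replicate 2, replicate 4 or MIA inhibitor replicate 1, and to 18 without MIA vehicle replicate 2 or 3. It fell to 19 or 20 without MIA vehicle replicate 4, contralateral inhibitor replicate 3 or MIA inhibitor replicate 2. In the settings with 17 to 20, from 5.28% to 6.55% of all tested were called. The cause of these moves was not tested. The number of raised members lower with the inhibitor in MIA knees stayed between 135 and 163 of 198 in all settings run. For ENSRNOT00000119836.1 the inhibitor change in MIA knees, 0.13 on the log2 scale, was -0.19 by limma-voom and -0.18 to 0.67 over the fits that left out 1 library.

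With the replicate number as a block, 0 members were called in MIA knees and 41 in contralateral knees (44 without the block). Of all tested transcripts 0% and 24% were called. A block of number within treatment pairs the knees by number, although the pairing was not established. With it 34 were called in the interaction, 24 of them shared with the 33, where 11% of all tested transcripts were called (9.9% without the block). For the change between knees 197 members were called in vehicle rats (210 without the block) and 0 in inhibitor rats. Over all tested transcripts the calls in vehicle rats went the other way, from 7860 without the block to 9158 with it. No count of members moved by over 1.5 times. Of the named transcripts, this block changed 1 call, the interaction of ENSRNOT00000007747.8 (-1.17, adjusted p 0.0325).

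Depth limits low members: 21 raised members had a mean under 1 CPM, and a count of 0 allows 0.088 to 0.21 CPM in a contralateral library.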
